A study of Mus musculus with 4 samples.

Results

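Bdnf, the gene for brain-derived neurotrophic factor, was followed through 4 single-cell libraries of mouse embryoid bodies. It is 1 of the 32285 genes listed in each file and was matched by its symbol. Its level was read per library and across cells grouped by whether they held a UMI of Tagln, Dcn or Upk3b. A UMI (unique molecular identifier) stands for 1 captured transcript. Bdnf and this grouping were proposed from values in these libraries, so its levels are a description and carry no test.

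Embryoid bodies are spheres of differentiating cells, here grown from mouse embryonic stem cells of the R1 line. The hypoxic day 10 library came from 8 days in normoxia and then 48 h in hypoxia, and its control from 10 days in normoxia. The hypoxic day 8 library came from 7.33 days in normoxia and then 16 h in hypoxia, and its control from 8 days in normoxia. Age and length of hypoxia thus differ together between the hypoxic libraries, and no oxygen level is stated in the sources used here. Each condition has 1 library of the 10x Genomics 3′ kind, so library and condition cannot be told apart and no difference has a replicate check. All intervals are at 95% and cover counting error only.

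BDNF is a secreted growth factor of the neurotrophin family. It is made as a precursor, proBDNF, which proprotein convertases or extracellular proteases cut. The mature form binds the receptor tyrosine kinase TrkB, encoded by Ntrk2, while the precursor binds p75NTR, encoded by Ngfr, together with sortilin. It is best known for neuronal survival and synaptic plasticity, and it is also made outside the nervous system, in vascular smooth muscle and endothelium among others. Tagln encodes transgelin, an actin-binding protein of smooth muscle and of contractile mesenchymal cells. Dcn encodes decorin, a matrix proteoglycan of fibroblasts, and Upk3b a uroplakin of the mesothelium.

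After filtering, 4615, 2670, 3344 and 3163 cells remained in hypoxia at day 10, normoxia at day 10, hypoxia at day 8 and normoxia at day 8. They held 62221875 to 84709052 UMIs per library. The median depth per cell was 12800 UMIs in hypoxia at day 10, against 20306 in normoxia at day 10, and 18838.5 in hypoxia at day 8, against 23034 in normoxia at day 8. The pairs of libraries shared 15 cell barcodes in all. The summed level of 8 smooth muscle markers was 7802 CPM in hypoxia at day 10, against 2003 in normoxia, and 6176 in hypoxia at day 8, against 4400 in normoxia. Most of this sum came from Tagln, itself a grouping gene, and Acta2. At day 10 Tagln was at 3655 CPM in hypoxia and 575 in normoxia, and Acta2 at 3590 and 1064. For 8 fibroblast markers the summed level was 3685 against 8848 CPM at day 10 and 6747 against 6812 at day 8, hypoxia before normoxia. CPM are UMIs scaled by the total of the library, or of the group of cells, to a common total. The median mitochondrial share of a cell's UMIs was 0.562% in hypoxia and 3.92% in normoxia at day 10, and 1.85% in hypoxia and 3.95% in normoxia at day 8. With totals that leave out mitochondrial and ribosomal protein genes, the Bdnf log2 ratio described below was 2.51 at day 10 and 1.12 at day 8. The 7 neuron markers summed to 10.4 to 25.8 CPM per library and the 6 glia and neural crest markers to 2.68 to 7.44, with Sox10 at 0 in hypoxia at day 8. As a check of the labels, 11 of 11 measured targets of hypoxia-inducible factor (HIF) were at least 1.5-fold higher in hypoxia at both ages. Over all 14074 genes that averaged 1 CPM or more, that call held for 9.98% at day 10 and 4.59% at day 8.

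On mm10, Bdnf (ENSMUSG00000048482) lies on the plus strand of chromosome 2 from 109674700 to 109727007. GENCODE lists 11 transcripts with 9 distinct starts and 1 shared end. All use the same last exon, which begins at 109723382, spans 3626 bases and holds the sequence of the mature protein. A 3′ library reads near the shared end, so the UMIs do not show which start was used. The antisense gene Gm45346 overlaps 1892 bases at the 5′ end of the Bdnf locus and was itself almost unread, with 3 UMIs in hypoxia and 0 in normoxia at day 10 and 1 in each library at day 8.

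RefSeq gives 7 promoter windows for Bdnf on GRCm38.p6, each from 250 bases before to 50 after a start. The 2 windows that hold ACGTG, the core letters of the element bound by HIF, are shown because Bdnf was higher in both hypoxic libraries. Capitals mark ACGTG, a further form of that core with the letters GCGTG, and TGACG, part of a cAMP response element. A match on the minus strand is printed as its reverse complement, such as CACGT for the first of these. The first window lies at chr2:109674450-109674749 and the second at chr2:109692186-109692485, both on the plus strand, 5′ to 3′.
First window: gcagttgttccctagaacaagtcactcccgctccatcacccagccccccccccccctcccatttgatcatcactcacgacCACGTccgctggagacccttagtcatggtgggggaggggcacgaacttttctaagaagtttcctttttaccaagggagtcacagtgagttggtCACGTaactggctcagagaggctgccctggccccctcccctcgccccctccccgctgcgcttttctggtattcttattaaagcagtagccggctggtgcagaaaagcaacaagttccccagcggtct
Second window: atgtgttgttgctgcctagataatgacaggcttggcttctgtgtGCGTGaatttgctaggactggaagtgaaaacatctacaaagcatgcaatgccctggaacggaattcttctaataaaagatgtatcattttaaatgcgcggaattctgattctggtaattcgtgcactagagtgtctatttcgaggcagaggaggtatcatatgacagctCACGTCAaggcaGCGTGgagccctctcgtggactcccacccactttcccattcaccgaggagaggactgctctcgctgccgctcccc
The first window holds ACGTG at 2 places. In the second, ACGTG and TGACG overlap by 3 bases on the minus strand, and GCGTG lies close by and again near the window's start. Both strands of all windows were searched. ACGTG was in 2 of 7 Bdnf windows and in 19.6% of 32851 mouse promoter windows of the same length, GCGTG in 2 of 7 and 32.4%, TGACG in 1 of 7 and 20.8%, and GGAATG, the letters bound by TEAD factors, in 2 of 7 and 14.7%. The E-box CACGTG (0 of 7, 7.15% of all), the full cAMP response element (TGACGTCA, 0 of 7, 1.79%) and the CArG box of serum response factor (0 of 7, 1.63%) were not in these windows. A match is a run of letters, not a shown binding site.

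Bdnf was higher in hypoxia at both ages, and by more at day 10. At day 10 hypoxia gave 7041 Bdnf UMIs, a level of 91.7 CPM (Poisson interval 89.6 to 93.9), against 1052 UMIs and 16.9 CPM (15.9 to 18) in normoxia. That is a 5.42-fold difference (5.08 to 5.79), or 2.37 on the log2 scale of CPM + 1. At day 8 hypoxia gave 2180 UMIs and 27.9 CPM (26.8 to 29.1), against 1047 UMIs and 12.4 CPM (11.6 to 13.1) in normoxia, a 2.26-fold difference (2.10 to 2.44) and a log2 ratio of 1.12. In normoxia, day 10 was 1.37-fold above day 8 (1.25 to 1.49; log2 ratio 0.42). From high to low the order was hypoxia at day 10, hypoxia at day 8, normoxia at day 10 and normoxia at day 8, and no neighbouring intervals overlapped.

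Most genes did not differ this much. Of the 10599 genes that averaged 5 CPM or more, 4.39% were at least 2-fold higher in hypoxia at day 10 and 26.9% at least 2-fold lower. At day 8 these shares were 1.59% and 1.75%, and with age in normoxia 3.32% and 2.49%. A ratio at least as high as that of Bdnf was seen for 0.311% of genes at day 10, for 1.27% at day 8 and for 12.3% with age. The median log2 ratio of all genes averaging 1 CPM or more was -0.48 at day 10, -0.14 at day 8 and -0.08 with age. TMM scaling moved these medians by 0.42, 0.20 and 0.11, so the day 10 difference in Bdnf became 2.86 on the log2 scale. The split of genes past 2-fold also moved with TMM, to 1310 higher and 1442 lower at day 10, against 465 and 2850 without it. It was 281 higher and 63 lower at day 8, against 168 and 186, and 432 higher and 187 lower with age, against 352 and 264.

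The share of cells with a Bdnf UMI followed the same order. At day 10 it was 47.1% of cells in hypoxia, against 13.4% in normoxia, and at day 8 22.7% in hypoxia, against 12.8% in normoxia. With each cell thinned to 5000 UMIs, the day 10 shares were 27.4% (Clopper-Pearson interval 26.0% to 28.8%) in hypoxia and 4.78% (3.98% to 5.69%) in normoxia. The day 8 shares were then 8.87% (7.91% to 9.92%) in hypoxia and 4.14% (3.46% to 4.90%) in normoxia. Thinning left out 619, 162, 166 and 70 shallower cells in hypoxia and normoxia at day 10 and in hypoxia and normoxia at day 8. The thinned shares of both normoxic libraries overlap within their intervals.

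**Figure D1:**
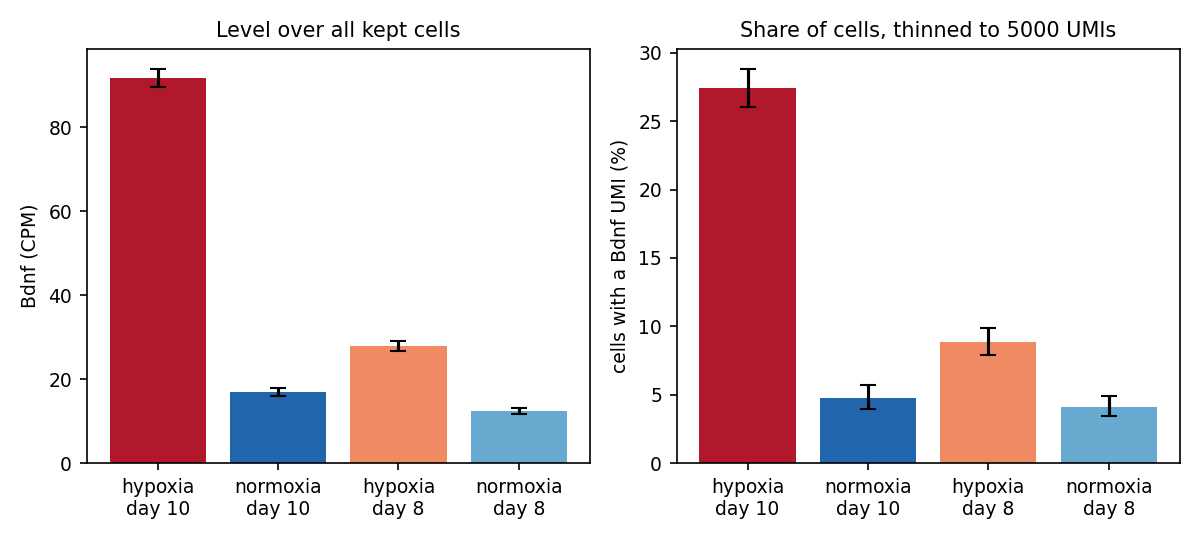
Bars give the Bdnf level over all kept cells in CPM (left) and the share of cells with a Bdnf UMI after thinning each cell to 5000 UMIs in percent (right), 1 library per condition, with 95% Poisson (left) and Clopper-Pearson (right) intervals. Hypoxia at day 10 stands at 91.7 CPM and 27.4% of cells, above the other 3 libraries on both scales.

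The counts of Bdnf UMIs per cell are given as sequenced, without thinning, so they also move with the depth of each library. Cells with at least 1 Bdnf UMI held 3.24 on average in hypoxia at day 10, against 2.95 in normoxia, and 2.87 in hypoxia at day 8, against 2.58 in normoxia. Cells with 10 or more numbered 108 in hypoxia and 13 in normoxia at day 10, and 20 in hypoxia and 12 in normoxia at day 8. The tenth of cells richest in Bdnf held 52.6% of its UMIs in hypoxia at day 10, against 91.4% in normoxia, and 74.9% in hypoxia at day 8, against 91.5% in normoxia. The single highest cell was in normoxia at day 10, with 47 Bdnf UMIs, 216 Tagln UMIs and 91646 UMIs in all, and the 10 highest cells held 18.4% of that library's Bdnf. Without the 10 highest cells of each library the day 10 log2 ratio was 2.59 and the day 8 ratio 1.19.

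Bdnf lay in cells with Tagln. At day 10 in hypoxia, cells with a Tagln UMI were 85.2% of all cells and held 98.9% of the Bdnf UMIs, and in normoxia 59.1% of cells held 91.3%. At day 8 in hypoxia 74.6% of cells held 98.5%, and in normoxia 69.2% held 96.8%. These shares of cells do not allow for depth, and cells with a Tagln UMI were deeper. Their median was 14201 UMIs, against 6159 in the rest, in hypoxia at day 10, and 24098 against 16502 in normoxia. At day 8 it was 20945 against 13950 in hypoxia and 25626 against 18500.5 in normoxia. The level was 96.3 CPM in Tagln-detected cells and 17.1 in the rest in hypoxia at day 10, a 5.64-fold difference, and 22.2 and 4.85 CPM in normoxia at day 10, 4.58-fold. At day 8 it was 32.8 and 2.62 CPM in hypoxia, 12.5-fold, and 15.5 and 1.71 CPM in normoxia, 9.07-fold.

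Dcn and Upk3b divided the cells far less. Bdnf was at 97.4 CPM in Dcn-detected cells and 83.7 in the rest in hypoxia at day 10, and at 17.2 and 15 CPM in normoxia. At day 8 it was at 30.4 and 20.1 CPM in hypoxia and at 13.2 and 9.97 CPM in normoxia. For Upk3b the day 10 levels were 95.9 CPM with and 89.4 without a UMI in hypoxia, and 19.6 and 14.1 in normoxia. At day 8 they were 30.8 and 25.0 CPM in hypoxia, and 12.6 and 12.1 in normoxia. The largest of these 8 differences was 1.51-fold, for Dcn in hypoxia at day 8. With detection read in thinned cells, the order turned for Dcn in normoxia at day 10 and Upk3b in normoxia at day 8. The share of cells with a Bdnf UMI was then 4.24% with Dcn and 6.22% without, and 3.54% with Upk3b and 4.30% without. Both pairs of intervals overlapped, and the other comparisons kept their order. Cells without a UMI may still hold the transcript, and the part of such cells was not tested.

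The grouping genes themselves differed between libraries. Tagln was at 3655 CPM in hypoxia and 575 in normoxia at day 10, and at 2043 in hypoxia and 1178 in normoxia at day 8. Dcn was at 99.5 CPM in hypoxia and 682 in normoxia at day 10, and at 293 and 225 at day 8. Upk3b was at 32.7 CPM in hypoxia and 136 in normoxia at day 10, and at 105 and 74.8 at day 8. The share of cells in each detection group therefore differed too, so levels are also given with the group shares held fixed. Detection moves with these genes and with depth. Fixed shares therefore cannot tell a difference in cell make-up from one of these genes within cells.

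Among the 8 combinations of the 3 genes, the 4 with Tagln had like levels within a library, with Tagln and Upk3b without Dcn in normoxia at day 10 as the exception. In hypoxia at day 10 they ran from 91.6 CPM (Tagln alone) to 101 CPM (Tagln with Dcn). In normoxia at day 10 the 3 with at least 50 cells ran from 19.7 to 29.3 CPM. The fourth, Tagln with Upk3b, was at 99.0 CPM (75.5 to 127), from 60 UMIs in 20 cells, of which 1 cell held 31 UMIs. At day 8 all 4 had at least 50 cells, and they ran from 26.8 to 39.3 CPM in hypoxia and from 13.4 to 17.8 CPM in normoxia.

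Of the combinations with at least 50 cells, cells with none of the 3 genes had the lowest levels in both day 10 libraries and in normoxia at day 8. At day 10 they held 44 UMIs in 565 cells in hypoxia (12.7 CPM, 9.25 to 17.1), against 2 UMIs in 338 cells in normoxia (0.376 CPM, 0.0456 to 1.36). At day 8 they held 17 UMIs in 440 cells in hypoxia (2.73 CPM), against 8 UMIs in 466 cells in normoxia (0.911 CPM).

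**Figure D2:**
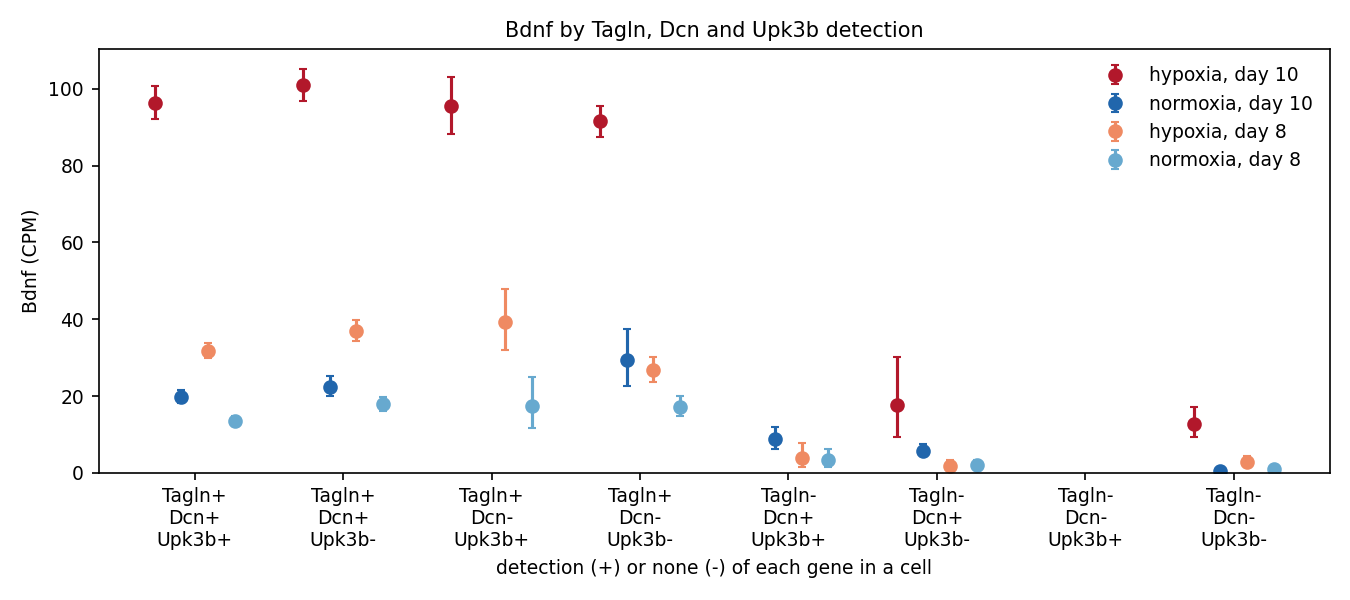
Bdnf in CPM with 95% Poisson intervals for each combination of Tagln, Dcn and Upk3b detection (+ for at least 1 UMI) with at least 50 cells in a library. The 4 combinations with Tagln lie between 91.6 and 101 CPM in hypoxia at day 10, and the points without Tagln lie below those with it in each library.

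Hypoxia was above normoxia in each of these groups with at least 50 cells in both libraries, except cells with Dcn alone at day 8. At day 10 the fold was 4.34 (4.06 to 4.65) among Tagln-detected cells and 3.52 (2.57 to 4.82) among the rest. It was 4.88 in cells with all 3 genes, 4.49 with Tagln and Dcn and 3.12 with Tagln alone. At day 8 the fold was 2.12 (1.96 to 2.28) among Tagln-detected cells and 1.53 (0.917 to 2.56) among the rest, and from 1.56 to 2.37 over the 4 combinations with Tagln. With the combinations, including some of as few as 12 cells, held at their normoxic shares of UMIs, the day 10 level was 76.8 CPM in hypoxia and 16.9 in normoxia (log2 ratio 2.12) and the day 8 level 26.0 CPM in hypoxia and 12.4 in normoxia (1.01). With age in normoxia, at the day 8 shares, it was 19.4 CPM at day 10 and 12.4 at day 8 (0.61).

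Bdnf also followed how much Tagln a cell held. In cells thinned to 5000 UMIs, hypoxia at day 10 had 11.7 Bdnf UMIs per 100 cells at 0 Tagln UMIs, 24.1 at 1 to 2, 37.1 at 3 to 5, 40.6 at 6 to 10, 45.3 at 11 to 20 and 57.0 above 20. Normoxia at day 10 had 3.11, 7.26, 8.33, 6.35, 18.9 and 30.2 over the same bins. Hypoxia at day 8 had 3.01, 6.37, 7.58, 11.7, 25.2 and 38.1, and normoxia at day 8 had 0.944, 1.98, 4.72, 7.41, 19.0 and 28.1. The lowest bin was the lowest and the highest bin the highest in all 4 libraries.

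The libraries stood closer together in cells rich in Tagln. At day 10, hypoxia was 1.88-fold above normoxia (1.09 to 3.56) in cells above 20 Tagln UMIs and 2.40-fold (1.47 to 4.17) at 11 to 20, against 3.31-fold to 6.40-fold in the 4 lower bins. At day 8 the fold was 1.35 (0.990 to 1.87) above 20 Tagln UMIs and 3.19 (1.67 to 6.41) at 0. In normoxia, day 10 was 1.07-fold above day 8 (0.539 to 1.99) above 20 Tagln UMIs and 3.29-fold (1.77 to 6.49) at 0. In both comparisons the intervals of the highest and lowest bin overlapped too. Cells above 20 Tagln UMIs were 30.5% in hypoxia and 1.71% in normoxia at day 10, where they numbered 43, and 12.6% in hypoxia and 6.43% in normoxia at day 8. With the 6 bins held at their normoxic shares, the day 10 fold was 3.56, against 6.82 unweighted, and the day 8 fold 1.73, against 2.34. With the bins at their hypoxic shares these folds were 2.52 and 1.58. This weighting was chosen after the values were seen.

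**Figure D3:**
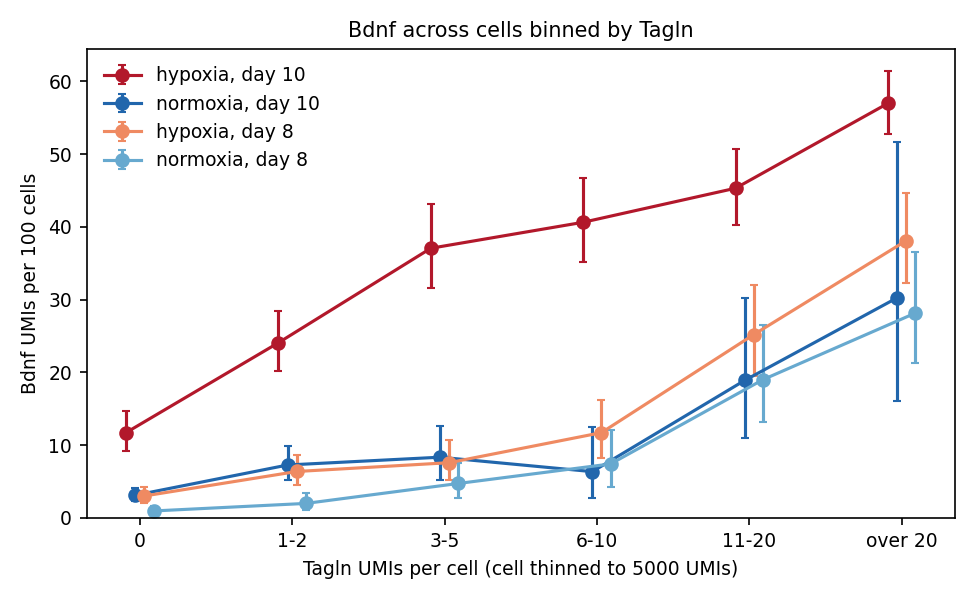
Bdnf UMIs per 100 cells (95% Poisson intervals) in cells thinned to 5000 UMIs and binned by their Tagln UMIs, 1 line per library. Hypoxia at day 10 lies highest in each bin, from 11.7 to 57.0, and the intervals of the other 3 overlap above 10 Tagln UMIs.

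By cell type, most cells fell outside 6 lineages set apart by their markers, and so did most Bdnf UMIs. The cells outside include clusters 4 and 12, which are named fibroblast-like and mesothelial-like or epicardial-like below. At day 10 the cells outside held 99.2% of the Bdnf UMIs in hypoxia, with 95.6% of all UMIs, and 98.6% in normoxia, with 90.9%. At day 8 they held 97.2% in hypoxia, with 86.6% of all UMIs, and 97.0% in normoxia, with 85.5%. The remaining cells had 95.1 CPM in hypoxia and 18.3 in normoxia at day 10, and 31.4 in hypoxia and 14.0 in normoxia at day 8. Macrophage-like cells were set as a measure of free RNA. At day 10 they had 8.73 CPM in hypoxia (119 cells, 4.20% with a UMI) and 3.71 in normoxia (183 cells, 1.09%). Of these UMIs, 1 cell held 8 of 14 in hypoxia and 1 cell held 14 of 15 in normoxia. These levels thus rest largely on 1 cell each and are not an even background. The median depths of the macrophage-like cells were 12278 UMIs in hypoxia and 19532 in normoxia, close to the 13011 and 20545 of the remaining cells. Of the remaining cells, 49.9% had a Bdnf UMI in hypoxia and 14.9% in normoxia. At day 8 the macrophage-like cells had 1 UMI in 38 cells in hypoxia and 0 in 51 cells in normoxia, which allows up to 1.99 CPM. Erythroid-like cells at day 8 had 4.14 CPM in hypoxia (154 cells) and 0 UMIs in 109 cells in normoxia, which allows up to 1.86 CPM. Endoderm-like cells at day 10 had 26.2 CPM in hypoxia (60 cells) and 0 UMIs in 65 cells in normoxia, which allows up to 2.73 CPM. At day 8 these cells had 8.55 CPM in hypoxia and 4.56 in normoxia.

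Much of the Bdnf in these lineages came with Tagln. Over all libraries, macrophage-like cells with more than 10 Tagln UMIs were 7 cells with 24 Bdnf UMIs, while the 384 others had 6 UMIs (0.752 CPM). Erythroid-like cells with more than 10 were 15 cells with 8 UMIs, and the 270 others had 2. Endoderm-like cells had 14.3 CPM above 10 Tagln UMIs and 4.62 CPM otherwise, and the hypoxic day 10 endoderm-like cells themselves stood at 3607 CPM of Tagln. Whether such cells are doublets was not tested. The cut at 10 Tagln UMIs was chosen after the values were seen and was made on unthinned cells. Over the 6 lineages, cells above it had a median of 38363 UMIs, against 16627 in the others. The part of this depth in the difference was not tested.

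Outside these lineages, Bdnf concentrated in a few clusters, found without Bdnf among the genes used. Cluster 3 (led by Serpinb9b, Tubb3, Ccl17, Piezo2 and Ankrd1) was 6.40% of cells and 37.7% of Bdnf UMIs in normoxia at day 10, 18.3% and 70.5% in hypoxia at day 8, and 13.4% and 77.4% in normoxia at day 8. Its level was 59.7 CPM in normoxia at day 10, 67.5 in hypoxia at day 8 and 48.1 in normoxia at day 8. Within this cluster hypoxia was 1.40-fold above normoxia at day 8 (1.29 to 1.53) and day 10 was 1.24-fold above day 8 in normoxia (1.10 to 1.40). It carried 2297 to 5506 CPM of Tagln in those libraries and scored highest for smooth muscle markers. Its leading genes held none of these but did hold the neuron marker Tubb3, so it is left unnamed. Only 4 cells of it were in hypoxia at day 10.

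Hypoxia at day 10 was largely made of clusters of its own. Cluster 16 (led by Inhba and Siglecg) had 154 CPM in 173 cells, the highest of any cluster with at least 50 cells in a library, and 7581 CPM of Tagln. Cluster 0 had 116 CPM in 1541 cells and held 51.1% of that library's Bdnf. The other large clusters of that library, 17, 2, 9 and 7, had 78.4, 69.0, 68.7 and 48.6 CPM. Cluster 9 was the only one outside the named lineages with at least 50 cells in both day 10 libraries, and there hypoxia had 68.7 CPM (315 UMIs), against 12 in normoxia (6 UMIs), a 5.73-fold difference (2.60 to 15.7). Its cells also had 3464 CPM of Tagln in hypoxia and 1051 in normoxia, and median depths of 9780.5 and 2815 UMIs, whose part in the difference was not tested.

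Clusters with 233 to 760 CPM of Tagln had 18.9 CPM of Bdnf or less. The fibroblast-like cluster 4 had 9.23 CPM and the mesothelial-like or epicardial-like cluster 12 had 14.4 CPM, both in normoxia at day 10. Cluster 4 was named by its score alone, as its leading genes held no marker of any list. At a coarser resolution of 0.5, 2047 of the 2670 cells of that library fell in 1 cluster named mesothelial-like or epicardial-like. That cluster was led by Angptl7, as cluster 4 is, and no cluster was then named fibroblast-like. At day 8, clusters 1, 8 and 10 had 4.45 to 6.60 CPM in hypoxia and 2.77 to 3.79 in normoxia. Cluster 5, led by mitotic genes such as Cenpf and Aspm, had 14.1 CPM in hypoxia and 4.29 in normoxia at day 8, a 3.28-fold difference (2.47 to 4.39). Cluster 6, almost all from hypoxia at day 8, had 18.9 CPM.

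**Figure D4:**
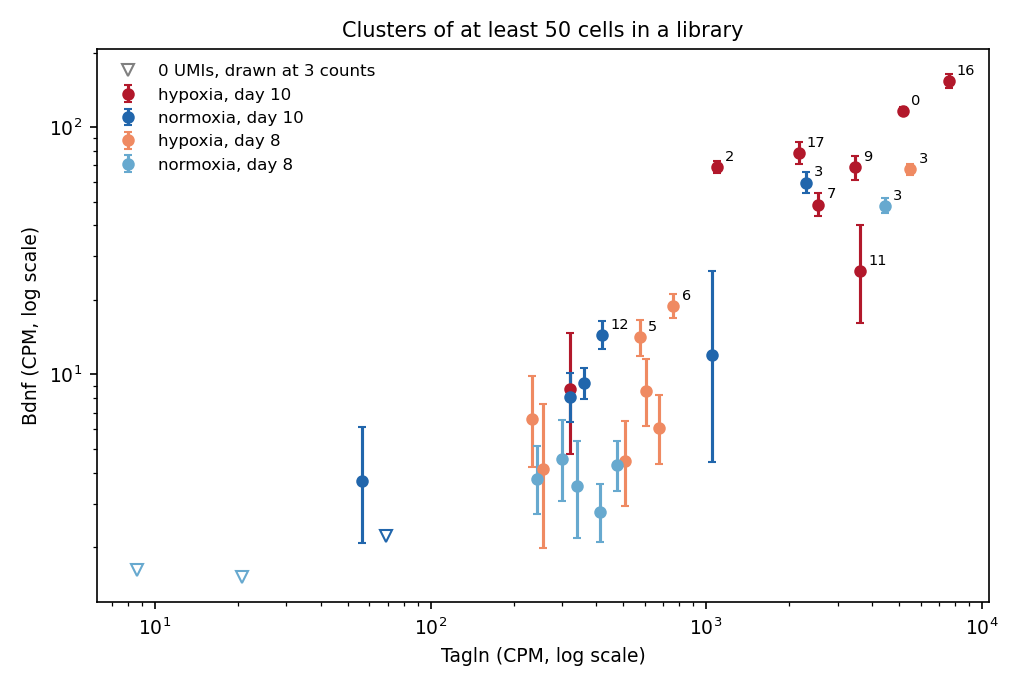
Bdnf against Tagln, both in CPM on log scales, for each cluster with at least 50 cells in a library (95% Poisson intervals, clusters above 12 CPM numbered). Points above 40 CPM of Bdnf all have over 1000 CPM of Tagln, and open triangles are clusters with 0 UMIs drawn at the level of 3 counts.

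Within the same cells, Bdnf was also set beside depth, cycling and HIF targets in each cell. It was at 108 CPM in the tercile of cells with the most UMIs and 53.8 in the tercile with the fewest in hypoxia at day 10, and at 26.6 and 7.65 in normoxia. At day 8 these levels were 43.0 and 8.81 in hypoxia and 21.2 and 3.23 in normoxia. Cells with an Mki67 or Top2a UMI, both marks of cycling cells, had 87.8 CPM, against 98.5 in cells with neither, in hypoxia at day 10, and 16.2 against 20.3 in normoxia. At day 8 they had 29.5 against 33.3 in hypoxia and 12.8 against 16.8 in normoxia.

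The upper tercile of cells by the share of UMIs from HIF targets had more Bdnf than the lower tercile in 3 libraries and less in the other. The levels were 110 and 79.9 CPM in hypoxia at day 10, 32.7 and 10.6 in normoxia at day 10, 26.8 and 32.6 in hypoxia at day 8, and 22.4 and 6.03 in normoxia at day 8.

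The genes with a profile most like that of Bdnf were taken by rank. Over 26 profiles (combinations of Tagln, Dcn and Upk3b detection with at least 50 cells in a library) and 10090 genes, the 8 most alike by Pearson's r of log2 CPM + 1 were Prss23 (0.956), Jph2 (0.946), Vgll3 (0.943), Tinagl1 (0.940), Lhfp (0.938), Hcfc1r1 (0.937), Lrrfip1 (0.925) and Hspb2 (0.918). Centred within each library, they were Prss23 (0.975), Jph2 (0.963), Myl12a (0.958), Tpm1 (0.956), Cryab (0.953), Lmod1 (0.948), Vgll3 (0.948) and Actn1 (0.947). Prss23 encodes a serine protease, Jph2 a junction protein of muscle, Vgll3 a cofactor of TEAD factors, Tpm1 tropomyosin, Lmod1 an actin nucleator of smooth muscle and Actn1 alpha-actinin. Tagln, which defines the profiles in part, ranked 52 (0.841) and, centred, 12 (0.937), Dcn had -0.07 and Upk3b 0.17. The profiles share libraries and are set in part by Tagln, a contractile gene, so contractile genes can rank high by construction and these values describe likeness only.

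The 8 did not all share the size of the Bdnf difference. At day 10 the log2 ratio was 1.99 for Hspb2, a small heat shock protein of muscle, 1.52 for Jph2, 1.31 for Vgll3 and 1.09 for Prss23, against 2.37 for Bdnf. At day 8 it was 0.80, 0.19, 0.45 and 0.85 for the same genes, against 1.12. Tpm1, with a centred r of 0.956, had 0.13 at day 10 and 0.21 at day 8.

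The named genes around Bdnf had lower ratios. Lin7c, a scaffold protein gene downstream, had log2 ratios of 0.40 at day 10 and 0.03 at day 8, and Lgr4, an R-spondin receptor gene beyond it, 0.53 and -0.16. Upstream, the kinesin gene Kif18a had -0.33 and -0.17 and Mettl15 had -1.22 and 0.05. Ccdc34, at the far side of Lgr4, had -1.38 and -0.14.

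Of the other neurotrophins, Ntf3 and Ntf5 were followed, and both were lower in hypoxia at day 10. By 1.5-fold, 2 of 2 were lower at day 10, beside 44.7% of all genes, and 1 of 2 at day 8, beside 12.1%. Ntf3, for neurotrophin-3, was at 2.11 CPM in hypoxia and 7.04 in normoxia at day 10 (log2 ratio -1.37) and at 5.04 in hypoxia and 15.1 in normoxia at day 8 (-1.42). Ntf5, for neurotrophin-4, was at 2.68 CPM in hypoxia and 7.89 in normoxia at day 10 (-1.27) and at 7.22 and 4.80 at day 8 (0.50). Levels of different genes are not set against each other here, and each ratio compares a gene with itself.

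The receptor genes Ntrk2, Ntrk3 and Ngfr were at 11.4 CPM or less in every library. Ntrk2, for TrkB, was at 5.43 CPM in hypoxia and 7.36 in normoxia at day 10 (-0.38) and at 9.91 and 11.4 at day 8 (-0.18). In the cells outside the 6 lineages it was seen in 6.81% of cells in hypoxia and 9.92% in normoxia at day 10, and in 15.6% in hypoxia and 19.3% in normoxia at day 8. Macrophage-like cells had at most 2 Ntrk2 UMIs per library. Ntrk3, for the neurotrophin-3 receptor TrkC, was at 0.742 CPM in hypoxia and 10.4 in normoxia at day 10 (-2.71) and at 8.33 and 8.89 at day 8 (-0.08). Ngfr was at 0.260 CPM in hypoxia and 1.83 in normoxia at day 10 and at 0.872 and 1.76 at day 8.

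Among the sortilin family, which sorts or binds pro-neurotrophins, members went different ways at day 10. Sort1 was at 62.6 CPM in hypoxia and 34.7 in normoxia (0.83), Sorcs1 at 37.8 and 100 (-1.39) and Sorcs2 at 0.833 and 12.8 (-2.91). At day 8 their log2 ratios were -0.46, 0.45 and 0.26. In all, 1 of 6 measured receptors and sortilins was at least 1.5-fold higher and 4 lower at day 10, beside 9.98% and 44.7% of all genes. At day 8 it was 0 higher and 0 lower, beside 4.59% and 12.1%.

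Of the convertases that can cut pro-neurotrophins, Pcsk6 (PACE4) differed most. It was at 18.6 CPM in hypoxia and 4.10 in normoxia at day 10 (1.94) and at 4.15 and 1.38 at day 8 (1.11). Furin was at 61.0 CPM in hypoxia and 47.9 in normoxia at day 10 (0.34), and Pcsk5 at 39.8 and 48.3 (-0.27). Pcsk1 and Pcsk2, the convertases of neuroendocrine granules, were below 1 CPM throughout. Of 4 measured convertases, Pcsk6 alone passed 1.5-fold at either age, higher at both, beside 9.98% of all genes higher and 44.7% lower at day 10 and 4.59% and 12.1% at day 8.

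Outside the cell, plasmin made by the activators Plat and Plau can cut proBDNF, and the serpin Serpine2 can inhibit those activators. Plat was at 21.5 and 27.8 CPM at day 10 (-0.36), and Mmp9, for a gelatinase, at 1.30 and 5.46 (-1.49), hypoxia before normoxia. Of 4 measured members, Mmp9 was lower and 0 were higher by 1.5-fold at day 10, and 0 passed either way at day 8, beside 9.98% of all genes higher and 44.7% lower at day 10 and 4.59% and 12.1% at day 8. Cpe, the sorting receptor of the regulated secretory pathway, was at 181 CPM in hypoxia and 120 in normoxia at day 10 (0.59), with a log2 ratio of 0.27 at day 8. Of 4 measured genes of granule sorting, 1 (Cpe) was higher and 0 lower by 1.5-fold at day 10, with a median log2 ratio of -0.06. At day 8 0 passed either way. The shares of all genes are those just given.

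**Figure D5:**
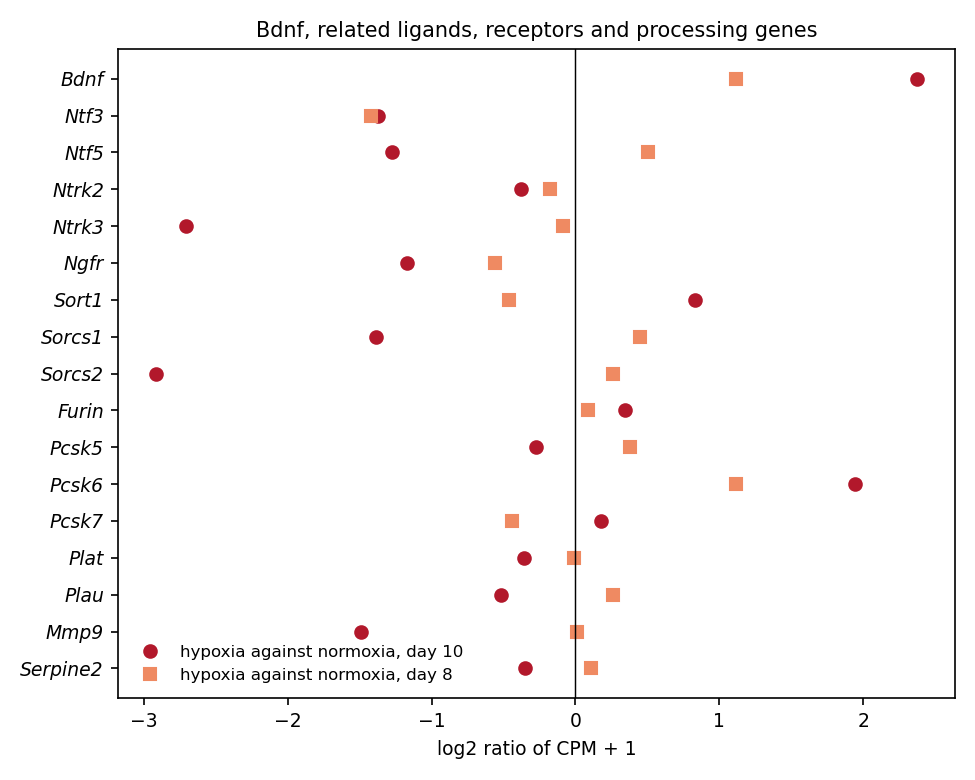
Log2 ratio of CPM + 1 of hypoxia against normoxia at day 10 (circles) and day 8 (squares) for Bdnf and the neurotrophins, receptors, sortilins, convertases, proteases and the inhibitor measured here. Bdnf (2.37 and 1.12) and Pcsk6 (1.94 and 1.11) lie to the right of 1 at both ages, and Ntf3 lies to the left of -1 at both.

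Of the factors known to act on Bdnf promoters in neurons, 13 were measured. Usf2, an E-box factor, was at 111 CPM in hypoxia and 50.7 in normoxia at day 10 (1.11), and Bhlhe40, a repressor and a known HIF target, at 41.0 and 25.0 (0.69). Bhlhe40 was also higher at day 8, at 30.4 CPM in hypoxia, against 11.5 in normoxia (1.32). By 1.5-fold, 2 were higher and 5 lower at day 10, close to the 9.98% and 44.7% of all genes, and among the lower were Rest, the repressor of neuronal genes (-1.02), Mef2c (-1.15), Carf (-1.19) and Crem (-0.90). Creb1, for the main cAMP response factor, was at 56.4 and 65.4 CPM at day 10, hypoxia before normoxia (-0.21).

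Genes induced by neuronal activity, as Bdnf itself is in neurons, were called at day 10 about as often as all genes. Of 10 measured, 1 was higher by 1.5-fold at day 10 (Nr4a2, 0.77) and 5 lower, among them Egr1 (-1.59), Egr3 (-2.23) and Homer1 (-1.46), beside 9.98% and 44.7% of all genes. At day 8 0 were higher and 1 lower, beside 4.59% and 12.1%. With age in normoxia 7 were higher and 1 lower, beside 9.34% and 10.4% of all genes. Of 12 adaptors downstream of Trk receptors and p75NTR, Gab1 (1.28), Sos1 (1.02) and Frs2 (0.67) were higher and Shc1 (-1.34) and Kidins220 (-0.73) lower at day 10, beside 9.98% and 44.7% of all genes, and 0 passed 1.5-fold at day 8, beside 4.59% and 12.1%. Of 6 measured neurotrophic factors of other families, 2 were higher and 2 lower at day 10, beside the same shares of all genes, with Cntf at 0.87 and Manf, a factor released under stress of the endoplasmic reticulum, at 0.62. Over the 61 measured genes of these lists, leaving out HIF targets, 11 were higher and 21 lower at day 10, 3 and 2 at day 8, and 16 and 8 with age. Over all genes the shares were 9.98% and 44.7% at day 10, 4.59% and 12.1% at day 8, and 9.34% and 10.4% with age. With TMM scaling the list counts became 20 higher and 14 lower at day 10. They were 7 and 1 at day 8, and 19 and 7 with age. The shares of all genes past 1.5-fold with TMM were not taken. Past 2-fold at day 10, all genes went from 465 higher and 2850 lower to 1310 and 1442 with TMM. The day 10 balance of the lists thus turned with the scaling, and that of all genes moved the same way.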

How the data were processed

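Single-cell RNA was measured by the 10x 3′ v3.1 kit. The authors deposited counts, whole-number UMI counts per gene and cell, made with Cell Ranger 7.1.0 on mm10 per the submitters' processing notes. The handling of intronic reads is not stated in the sources used here. A barcode was kept with 500 genes or more and no more than 15% mitochondrial UMIs. Scrublet called 1, 9, 1 and 5 doublets in hypoxia and normoxia at day 10 and in hypoxia and normoxia at day 8, under 0.5% of cells, so doublets remain.

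UMIs were summed per library or group of cells, scaled to CPM by the total of the library or group, and set against each other as log2 ratios of CPM + 1. Intervals are exact Poisson (levels), conditional binomial (plain ratios) and Clopper-Pearson (shares). No significance test was run, since each condition has 1 library. Cells were thinned to 5000 UMIs where stated. Clusters (scanpy 1.11.5, Leiden at resolution 1, 2000 variable genes, 30 components, 15 neighbours) were found without Bdnf, the listed genes and genes of cycling, glycolysis and stress. A cluster was named where a marker list had a mean log2 fold of at least 1 and at least 3 markers 2-fold higher. The name was dropped where the leading genes held more markers of another list than of that one. The 6 lineages were endoderm, macrophage, erythroid, megakaryocyte, cardiomyocyte and endothelial. List members needed a mean of 1 CPM and were called at 1.5-fold. Named genes were the listed ones, neighbours within 500 kb and the 8 most alike, without mitochondrial, ribosomal and unnamed genes. TMM used edgeR 4.0.16. The code for ratios and intervals was checked on simulated counts. Bdnf and all lists were chosen with earlier results of these data known. A few list members are not reported here and stay out of all list counts. Ca9 did not match by symbol, and no pairing exists, since each condition has 1 library.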

Additional observations from a re-analysis of the deposited data

Results flagged for a closer look

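Cells with Dcn but neither Tagln nor Upk3b were the only group of at least 50 cells in which hypoxia stood on opposite sides of normoxia at the 2 ages. At day 10 they had 17.6 CPM of Bdnf in hypoxia (13 UMIs in 88 cells), against 5.76 in normoxia (52 UMIs in 529 cells), a 3.05-fold difference (1.52 to 5.68). At day 8 they had 1.68 CPM in hypoxia (7 UMIs in 274 cells), against 1.92 in normoxia (13 UMIs in 334 cells), a log2 ratio of -0.12 and a 0.876-fold difference (0.296 to 2.36). The day 8 interval takes in both directions, and the difference between the ages was not tested.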

How the results depend on the processing

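Values run in the order hypoxia and normoxia at day 10, hypoxia and normoxia at day 8 for levels, and day 10, day 8 and age in normoxia for ratios. No direction of a Bdnf difference between libraries turned under any alternative. The Bdnf level was 119, 15.6, 27.6 and 10.4 CPM with TMM scaling, 135, 22.8, 36.2 and 16.1 with totals without mitochondrial and ribosomal protein genes, 76.9, 12, 20.6 and 9.12 as the mean over cells and 89.4, 14, 26.1 and 10.9 without the 10 highest cells. The log2 ratios were 2.86, 1.32 and 0.53 (TMM), 2.51, 1.12 and 0.48 (those totals), 2.59, 1.10 and 0.36 (mean over cells), 2.59, 1.19 and 0.33 (without the 10 highest cells), 1.92, 0.76 and 0.27 (pseudocount of 10 CPM) and, chosen after seeing the data, 2.07, 1.03 and 0.49 in Tagln-detected cells. All deposited barcodes, a stricter filter and removal of the highest-scoring doublets moved them by less than the counting interval. A coarser clustering left the levels of macrophage-like cells and of the cells outside the lineages within theirs. The other lineages were not compared, and the coarser clustering named no megakaryocyte cluster. The share of cells with a UMI was 12.9, 1.94, 3.81 and 1.69% at 2000 UMIs per cell, 48.1, 8.41, 13.5 and 6.36% at 10000 and 47.1, 13.4, 22.7 and 12.8% unthinned. With Tagln detection set at 3 UMIs, Bdnf was at 101, 26.4, 37.1 and 18.8 CPM with and 22.5, 5.69, 5.0 and 1.67 without it, and after thinning at 99.6, 27.1, 37 and 19.8 and 29, 7.11, 6.44 and 1.84. At fixed shares the log2 ratios were 1.93, 0.97 and 0.82 with 3 UMIs and 1.83, 0.79 and 0.63 with the Tagln bins. List members past 1.5-fold, higher and lower, were 20 and 14, 7 and 1, and 19 and 7 with TMM. They were 10 and 18, 3 and 2, and 14 and 5 at a mean of 5 CPM. The shares of all genes past 1.5-fold were not taken under either setting. Genes past 2-fold, higher and lower, numbered 465 and 2850, 168 and 186, 352 and 264 as reported, 318 and 1433, 115 and 60, 173 and 113 at a mean of 20 CPM, 645 and 3819, 243 and 357, 612 and 545 with no filter, 1310 and 1442, 281 and 63, 432 and 187 with TMM and 269 and 1194, 98 and 28, 170 and 96 with a pseudocount of 10 CPM. The cause of these shifts was not tested. No replicate could be left out. No paired analysis was possible because each condition has 1 library. At this depth the Bdnf level of cells without Tagln rests on 33 to 92 UMIs per library.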

Other observations

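Barcodes removed by the filters also held Bdnf. Their level was 71.8 CPM (16 UMIs) in hypoxia and 20.1 CPM (18 UMIs) in normoxia at day 10, and 27.1 CPM (9 UMIs) in hypoxia and 20.9 CPM (14 UMIs) in normoxia at day 8.

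The highest cell of each library lay in cluster 0 in hypoxia at day 10 (30 Bdnf UMIs, 254 Tagln UMIs) and in cluster 3 in the other libraries. Those had 47 Bdnf and 216 Tagln UMIs in normoxia at day 10, 24 and 1236 in hypoxia at day 8, and 20 and 742 in normoxia at day 8.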
